A study of Mus musculus with 6 samples.

Results

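Heat shock chaperones of the cytosol and the mitochondrial matrix, with their regulator Hsf1, were examined as 10 genes chosen by name: Hspa8, Hspa4, Hsp90aa1, Hsp90ab1, Hsph1, Dnajb1, Dnaja1, Hspd1, Hspe1 and Hsf1. Hsf1 encodes a transcription factor and no chaperone, and is counted among the 10 throughout. All 10 were found among the 34745 genes of the deposited table, and all 10 had enough counts to be tested. RNA sequencing compared 3 libraries of cultured mouse spermatogonial stem cells given 100 µM bisphenol A (BPA), a plastics monomer, for about 4 days with 3 libraries of untreated cultures. Both groups were DBA/2J X c57BL/6J cells taken at postnatal day 6 and used at passages 15 to 20, with no transgene or mutation named. The untreated samples carry no mention of a vehicle, so BPA and its solvent cannot be told apart. The labels do not say that replicates were separate cultures, so each p-value reflects only how far these 6 libraries spread, which may be technical.

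Heat shock chaperones bind unfolded protein and release it in cycles of ATP hydrolysis. HSP70 proteins work with J-domain partners, which deliver the client, and with HSP110 exchange factors, which release the nucleotide. HSP90 receives partly folded clients such as kinases and hormone receptors, and the HSP60 and HSP10 pair forms a closed folding chamber in mitochondria. HSF1, held inactive by chaperones in unstressed cells, induces many of these genes when unfolded protein accumulates, and male germ cells are known for specialised HSP70 forms and for sensitivity to heat.

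The libraries held 14232872 to 22286517 gene counts in BPA cultures and 13453280 to 19183912 in untreated cultures, which covers each of the 10 genes by at least 557 counts. Unless FPKM is named, values are CPM, counts scaled to the library total after normalisation by the trimmed mean of M-values. Each log2 fold change sets BPA over untreated and carries its standard error (SE). Germ cell markers were present in every library, with the 14 listed genes summing to 1870 to 2407 CPM in BPA and 2523 to 2606 CPM in untreated cultures. Of these 14, 1 was higher and 5 lower in edgeR, where 4.37% of all tested genes were higher and 6.28% lower. At an unadjusted p under 0.05 there were 2 higher and 6 lower, and DESeq2 and limma-voom each called 7. The Sertoli cell list summed to 119 to 157 CPM in BPA and 44.1 to 59.9 CPM in untreated cultures, with 2 of 5 tested members higher (Sox9 and Clu) and the defining markers Fshr and Rhox5 at 0 in every library. At an unadjusted p under 0.05 this list had 3 higher and 0 lower, and DESeq2 and limma-voom each called 2. The feeder and matrix list summed to 65.7 to 102 and 96.7 to 135 CPM in BPA and untreated cultures, with 0 of 8 tested members called in edgeR (2 lower at an unadjusted p under 0.05, 1 called in DESeq2 and 0 in limma-voom). The peritubular and Leydig list summed to 7.07 to 12.8 CPM in BPA and 11.9 to 13.3 CPM in untreated cultures, with 0 of 2 tested members called in edgeR, also at an unadjusted p under 0.05, and 0 in DESeq2 and limma-voom. The part of these markers in the chaperone results was not tested. In bulk RNA, fewer cells of a type and less RNA per cell cannot be told apart.

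The level of each transcript per length put Hsp90ab1 first. In the deposited FPKM values Hsp90ab1 averaged 385 ± 45.7 in BPA and 372 ± 24.0 in untreated cultures (SD, n = 3 each), and Hspa8 averaged 123 ± 36.3 in BPA and 254 ± 33.9 in untreated cultures. Hspe1, Dnajb1, Hspa4 and Hsf1 followed in untreated cultures, between 110 and 58.1 FPKM, then Hspd1 at 22.2 ± 3.59 and Hsp90aa1 at 19.1 ± 1.63 FPKM, and last Hsph1 at 4.74 ± 1.04 and Dnaja1 at 3.93 ± 0.644 FPKM. The untreated ranges of Hspd1 and Hsp90aa1 overlapped, as did those of Hsph1 and Dnaja1, so these neighbours did not differ beyond their spread. In BPA cultures the same 3 genes led by mean, but Hspe1 at 91.6 ± 11.8 FPKM overlapped Hspa4 at 85.7 ± 35.2 FPKM. Hspa8, at 129, 83.7 and 156 FPKM in BPA replicates 1 to 3, overlapped both of them, while Hsp90ab1 lay above all of them. The authors' gene lengths, recovered from counts and FPKM, differ from the annotated exon length (9084 against 4301 bases for Hspa8 and 2018 against 7099 bases for Hsf1, the first being the authors'). With the annotated exon length, Hsf1 stood below Hsp90aa1 and Hspd1 in untreated cultures, at 17.2 CPM per kilobase against 33.1 and 24.1, and the first 3 genes were unchanged.

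Hspa8 and Dnajb1 fell in BPA cultures, and the other 8 genes did not pass the test. In edgeR's quasi-likelihood test 2 of 10 were thus lower and 0 higher, where 6.28% of the 13287 genes tested were lower, 4.37% higher and 10.6% changed either way. At an unadjusted p under 0.05 there were 1 higher and 3 lower, and DESeq2 and limma-voom also called 0 higher. The median log2 fold change of the 10 was -0.14, beside 0.10 over all tested genes. BPA and untreated values did not overlap for 3 of the 10, all lower in BPA (Hspa8, Dnajb1 and Hspe1), where 31.3% of all tested genes did not overlap and 15.7% lay below. Without BPA replicate 2, the library that stood apart, edgeR called 3 of the 10 lower (Hspa8, Dnajb1 and Hsf1) and 2 higher (Hspa4 and Hspd1). In that fit 11.7% of all 13708 genes tested were lower, 8.81% higher and 20.5% changed either way. With all libraries kept and corrected for the GC content and length of genes, Hsf1, Hspa4 and Hspd1 missed the threshold. Their log2 fold changes were then -0.13, -0.12 and 0.50 (edgeR adjusted p = 0.586, 0.686 and 0.108).

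**Figure D1:**
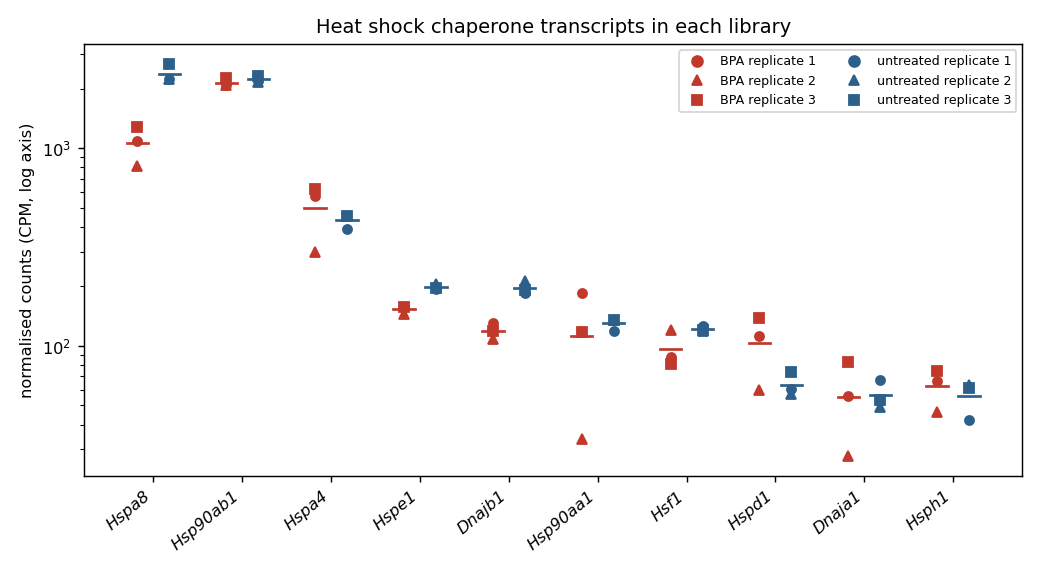
Normalised counts (CPM, log axis) of the 10 genes in each library, with BPA libraries in red left of untreated libraries in blue. Symbols mark the replicate number and short lines the mean of 3. Hspa8 and Dnajb1 separate cleanly with BPA lower, and BPA replicate 2 lies far under the other BPA libraries for Hsp90aa1, Hspa4, Dnaja1 and Hspd1.

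Hspa8 encodes HSC70, the constitutive cytosolic HSP70 that folds new proteins and uncoats clathrin vesicles (ENSMUSG00000015656, chromosome 9, 40800984 to 40805200, mm10). It stood at 1093, 808 and 1284 CPM in BPA replicates 1 to 3, against 2228, 2249 and 2679 CPM in untreated replicates 1 to 3. Every BPA library lay below every untreated one, and BPA replicate 2 was the lowest. The mean fell to 1062 ± 240 CPM in BPA cultures, against 2385 ± 255 CPM in untreated cultures (SD, n = 3 each), which is 0.445 of the untreated mean (log2 fold change -1.17, SE 0.17, edgeR adjusted p = 0.00107). The call held in all 20 alternatives, with log2 values of -1.54 to -1.003 and adjusted p up to 0.0182, and without BPA replicate 2 it was -1.003. Hspa8 alone took 0.117%, 0.076% and 0.141% of all counts in the BPA libraries and 0.212%, 0.213% and 0.266% in the untreated ones.

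Hspa8 has many processed copies in the genome. Of the 50-base windows of its longest transcript 52.7% also occur in annotated transcripts of other genes, so its count depends on how the authors treated reads with several matches, which is not given in the sources used here. A further gene with such sequence, Gm26825 on chromosome 5 (annotated as a lincRNA), has a row of its own and held 55.7% to 58.1% as many counts as Hspa8 in BPA libraries and 52.5% to 60.6% in untreated libraries. Its log2 fold change was -1.18 (SE 0.17, edgeR adjusted p = 0.00119), and adding its counts to those of Hspa8 left Hspa8 at -1.17. With fold changes this close the sum could hardly differ, so this alternative is no test of the Hspa8 call. Both rows fell by nearly the same amount, while the level of Hspa8 itself is uncertain.

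Dnajb1 encodes HSP40, the J-domain partner that stimulates the ATPase of HSP70 and helps it dissolve aggregates (ENSMUSG00000005483, chromosome 8, 83608175 to 83611902). It had 131, 108 and 119 CPM in BPA replicates 1 to 3, against 185, 212 and 192 CPM in untreated replicates 1 to 3. All 3 BPA libraries were below all 3 untreated ones, and the spread within each group was small. The mean fell to 119 ± 11.6 CPM in BPA cultures, against 196 ± 14.2 CPM in untreated cultures (log2 fold change -0.72, SE 0.16, edgeR adjusted p = 0.0135). Leaving out untreated replicate 1, 2 or 3 lost the threshold with a similar size (log2 -0.76, -0.65 and -0.69; edgeR adjusted p = 0.0646, 0.0882 and 0.0541).

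Dnaja1 encodes another J-domain partner of cytosolic HSP70 and, with Hsph1, was among the 2 least abundant of the 10 per length. Its values were 55.7, 27.6 and 83.0 CPM in BPA replicates 1 to 3, against 67.1, 48.8 and 53.1 CPM in untreated replicates 1 to 3. The BPA libraries spanned the whole untreated range and more, and the log2 fold change was -0.02 (SE 0.33, edgeR adjusted p = 0.978). It was 0.30 without BPA replicate 2 (edgeR adjusted p = 0.371) and -0.62 once every library was corrected for the GC content and length of its genes (edgeR adjusted p = 0.0634), both short of the threshold. The counts of Dnaja1 are also uncertain: 28.8% of its windows occur in other annotated transcripts, and 10.8% of its exon bases overlap other genes, among them Smu1 on the opposite strand, which a library kit without strand marks cannot separate. The difference between Dnajb1 and Dnaja1 in response was not tested.

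The HSP110 exchange factors did not pass the test. Hspa4, which releases ADP from HSP70, had 576, 297 and 619 CPM in BPA replicates 1 to 3, against 388, 457 and 456 CPM in untreated replicates 1 to 3. BPA replicates 1 and 3 were above all untreated libraries and replicate 2 was below them. The log2 fold change was 0.20 (SE 0.23, edgeR adjusted p = 0.638), 0.47 and past the threshold without BPA replicate 2 (edgeR adjusted p = 0.00722), and -0.12 with the GC and length correction. Hsph1, the HSP105 protein of the same family, had 66.6, 46.2 and 74.3 CPM in BPA and 42.1, 63.3 and 61.1 CPM in untreated replicates 1 to 3. Its groups overlapped, at a log2 fold change of 0.17 (SE 0.24, edgeR adjusted p = 0.717), and its sign turned to -0.08 after the gene length correction and -0.22 after that for GC and length.

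Neither HSP90 gene passed the test, with values close together for the major form and scattered for the minor one. Hsp90ab1, the constitutive HSP90 beta (ENSMUSG00000023944, chromosome 17, 45567775 to 45573271), had 2084, 2083 and 2261 CPM in BPA replicates 1 to 3, against 2196, 2168 and 2328 CPM in untreated replicates 1 to 3. These 6 values lay close together and the groups overlapped (log2 fold change -0.06, SE 0.11, edgeR adjusted p = 0.8; 0.05 with scaling by library size alone and 0.02 without untreated replicate 3). Hsp90aa1, the stress-inducible HSP90 alpha, had 186, 33.8 and 117 CPM in BPA replicates 1 to 3, against 119, 135 and 135 CPM in untreated replicates 1 to 3. BPA replicate 1 was the highest of the 6 libraries and BPA replicate 2 the lowest by far. The log2 fold change was -0.21 (SE 0.41, edgeR adjusted p = 0.804), with 0.22 when BPA replicate 2 was left out (edgeR adjusted p = 0.43) and -0.69 with the GC and length correction (edgeR adjusted p = 0.182). Processed copies share 58.5% of the Hsp90aa1 windows, so its level is uncertain too. The ratio of Hsp90aa1 to Hsp90ab1 counts was 0.0891, 0.0162 and 0.0519 in BPA libraries, against 0.0543, 0.0624 and 0.0582 in untreated libraries.

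Hspd1 and Hspe1 encode HSP60 and HSP10, the barrel and the lid of the mitochondrial folding chamber, and lie head to head on chromosome 1 (55077835 to 55088243 on the minus strand and 55088132 to 55091307 on the plus strand, mm10). RefSeq promoter windows (GRCm38.p6, 250 bases before to 50 after each start) were found for 6 of the 10 genes, with 11 windows in all. The window of Hspe1 and the second window of Hspd1 share 285 bases, with starts 216 bases apart. The Hspe1 window is shown because it covers DNA upstream of a start of both genes, and with it the windows of Hsph1 and of Dnajb1, the gene of the 3 that fell. Capitals mark heat shock elements, the motif bound by HSF1, searched as GAANNTTCNNGAA on both strands.
Hspe1 window, chr1:55087898-55088197, plus strand: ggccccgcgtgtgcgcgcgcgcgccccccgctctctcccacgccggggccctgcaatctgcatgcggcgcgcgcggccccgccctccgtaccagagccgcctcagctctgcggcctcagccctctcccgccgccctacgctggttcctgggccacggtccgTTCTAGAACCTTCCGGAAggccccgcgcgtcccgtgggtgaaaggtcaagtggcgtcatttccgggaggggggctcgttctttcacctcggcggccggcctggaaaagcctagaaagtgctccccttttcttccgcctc
Hsph1 second window, chr5:149636266-149636565, minus strand: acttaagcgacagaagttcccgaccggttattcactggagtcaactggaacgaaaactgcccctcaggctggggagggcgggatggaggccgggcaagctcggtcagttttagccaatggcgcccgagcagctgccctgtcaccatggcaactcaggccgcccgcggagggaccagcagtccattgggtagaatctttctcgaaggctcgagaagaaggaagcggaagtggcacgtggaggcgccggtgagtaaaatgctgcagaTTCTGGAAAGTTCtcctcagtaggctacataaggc
Dnajb1 first window, chr8:83607925-83608224, plus strand: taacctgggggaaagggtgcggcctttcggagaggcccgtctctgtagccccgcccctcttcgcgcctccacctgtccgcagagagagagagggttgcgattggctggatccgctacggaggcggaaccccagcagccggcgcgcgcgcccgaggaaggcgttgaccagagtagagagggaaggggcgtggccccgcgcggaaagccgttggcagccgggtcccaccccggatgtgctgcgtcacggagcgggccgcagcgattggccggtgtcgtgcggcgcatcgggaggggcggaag

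In the shared window the motif occurs in 2 overlapping copies that make up 18 bases, from 89 to 72 bases before the Hspe1 start and from 144 to 127 bases before the second Hspd1 start in RefSeq. The first Hspd1 start lies inside Hspe1, so the element is downstream of it, and the window of that start holds no match. The Hsph1 window holds 1 copy of 13 bases, from 16 to 28 bases after its start. No match lay in the first window of Hspd1 or in the windows of Dnajb1, Dnaja1 or Hspa4, which says only that these letters are not in those windows. Of all 32851 promoter windows 0.603% hold the motif. The shorter form GAANNTTC, which is part of every full match, was found in 7.86% of all windows and in the first window of Dnaja1. The ATF4-type letters TGATGCAA, searched on both strands, occur in 0.895% of all windows and in none of the 11. A match describes the sequence and does not show that a factor binds there.

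The chamber genes on either side of this shared DNA had BPA means on opposite sides of their untreated means, and neither passed the test. Hspd1 had 112, 59.5 and 138 CPM in BPA replicates 1 to 3, against 60.4, 57.2 and 73.4 CPM in untreated replicates 1 to 3. BPA replicates 1 and 3 were above every untreated library, while replicate 2 lay within the untreated range. The log2 fold change was 0.69 (SE 0.27, edgeR adjusted p = 0.127), 0.97 and past the threshold without BPA replicate 2 (edgeR adjusted p = 0.00158), and 0.70 and past it with no low-count filter (0.0184 in edgeR). These were the only 2 of the 20 alternatives past the threshold. Hspd1 was at 0.50 with the GC and length correction (edgeR adjusted p = 0.108) and 0.43 without BPA replicate 3 (edgeR adjusted p = 0.446). Hspe1 had 157, 144 and 158 CPM in BPA replicates 1 to 3, against 194, 206 and 195 CPM in untreated replicates 1 to 3. Its groups did not overlap, at a log2 fold change of -0.38 (SE 0.14, edgeR adjusted p = 0.125), which passed as lower after the GC and gene length correction (-0.45, edgeR adjusted p = 0.0457). Hspe1 passed in 2 of the 20 alternatives, both with that correction. The gene length correction alone left it at -0.22 (edgeR adjusted p = 0.42).

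The ratio of Hspd1 to Hspe1 counts was 0.713, 0.412 and 0.874 in BPA replicates 1 to 3, against 0.311, 0.278 and 0.376 in untreated replicates 1 to 3. Each BPA library was above each untreated one, and a two-sided exact permutation test gave p = 0.1, the smallest that 3 against 3 allows (adjusted p = 0.125 over the 5 ratios compared). Of the Hspd1 windows 44.8% occur in other annotated transcripts, against 8.2% for Hspe1, and the genes overlap by 112 exon bases on opposite strands.

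Hsf1, the master transcription factor of the heat shock response, had 88.1, 120 and 81.1 CPM in BPA replicates 1 to 3, against 127, 118 and 120 CPM in untreated replicates 1 to 3. BPA replicates 1 and 3 were below the untreated libraries and replicate 2 was among them. The log2 fold change was -0.34 (SE 0.19, edgeR adjusted p = 0.29), -0.52 and past the threshold without BPA replicate 2 (edgeR adjusted p = 0.0166). That was the only 1 of the 20 alternatives past the threshold. Hsf1 was at -0.13 with the GC and length correction (edgeR adjusted p = 0.586). HSF1 is controlled mainly at the protein level, and its activity was not measured.

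**Figure D2:**
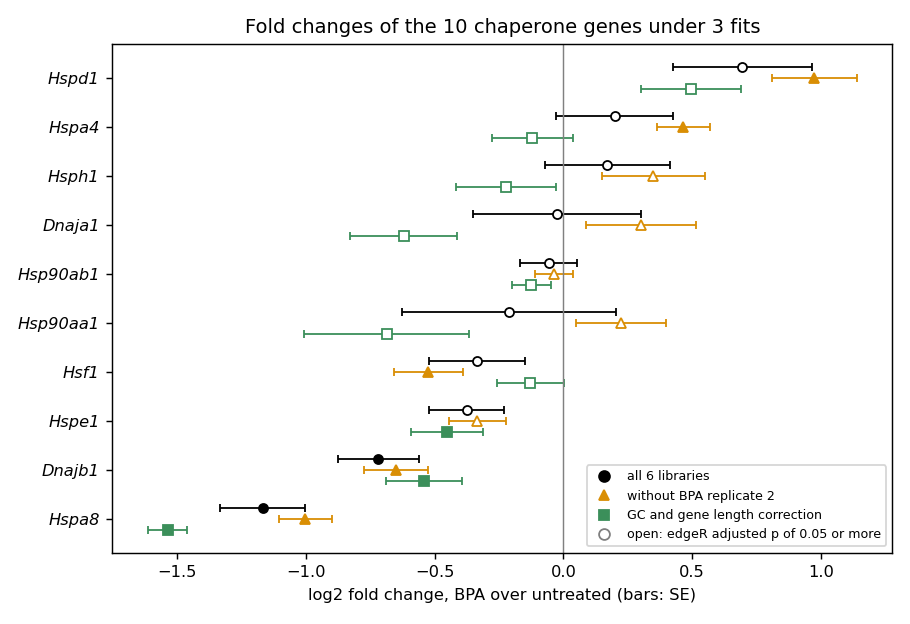
Log2 fold change (BPA over untreated, bars are SE) of the 10 genes with all 6 libraries (black circles), without BPA replicate 2 (orange triangles) and with counts corrected for GC content and length (green squares); open symbols miss an edgeR adjusted p of 0.05. Hspa8 and Dnajb1 stay below 0 and filled in all 3 fits, while Hspa4, Hsph1, Dnaja1 and Hsp90aa1 change sign between them.

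BPA replicate 2 stood apart for most of the 10. It was the lowest BPA library for 9 of them, where it was the lowest for 35.1% of all tested genes. It stood at 0.223 of the mean of BPA replicates 1 and 3 for Hsp90aa1, 0.398 for Dnaja1, 0.476 for Hspd1, 0.498 for Hspa4, 0.656 for Hsph1 and 0.68 for Hspa8. The ratio was 0.959 for Hsp90ab1, 0.917 for Hspe1 and 0.865 for Dnajb1, and 1.42 for Hsf1. The genes also differ in GC content: 41.2% to 47.3% for Dnaja1, Hsp90aa1, Hspe1, Hspa8, Hspa4, Hspd1 and Hsph1, and 51.0% to 53.4% for Hsp90ab1, Dnajb1 and Hsf1. Over 12530 genes with a mean of at least 1 CPM the log2 ratio rose with GC content (Pearson r = 0.65, Spearman rho = 0.67, a description across genes that share these 3 libraries), with a median of -0.70 in the GC-poorest and 0.44 in the GC-richest of 3 equal groups of genes. In the same groups the median log2 fold change of BPA over untreated was 0.35 and -0.13. The part of GC content in the chaperone results was not tested beyond the correction. The correction for GC and length moved Hspa8 to -1.54 and Dnajb1 to -0.54, both past the threshold (edgeR adjusted p = 2.83e-07 and 0.0259).

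**Figure D3:**
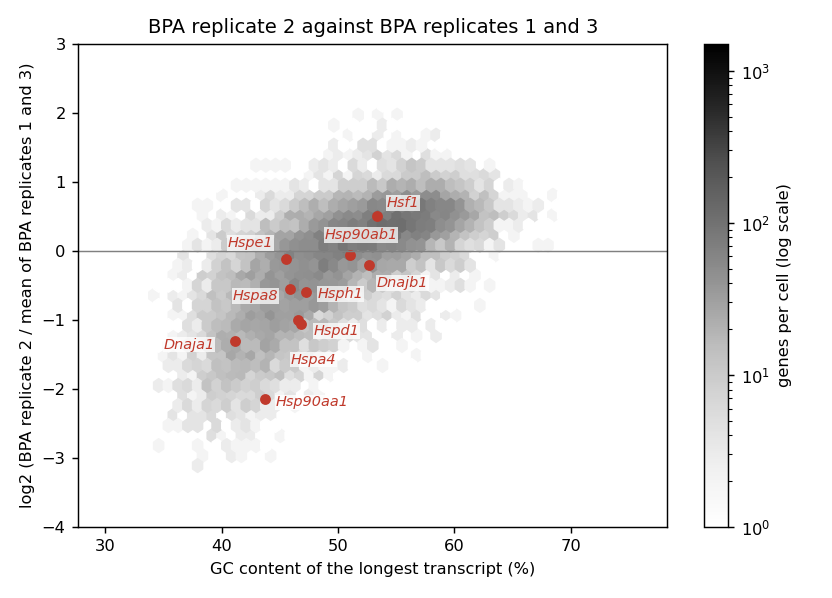
Log2 ratio of BPA replicate 2 to the mean of BPA replicates 1 and 3 against the GC content of the longest transcript (%), for 12530 genes (grey cells, darker for more genes) and the 10 listed genes (red points). The ratio rises with GC content, and Hsp90aa1, Dnaja1, Hspd1 and Hspa4 lie at -1 or below.

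The mitochondrial HSP70 went the opposite way to the cytosolic one. Hspa9, which encodes mortalin, the motor of protein import and folding in the matrix and no member of the 10, had 437, 306 and 550 CPM in BPA replicates 1 to 3, against 120, 112 and 148 CPM in untreated replicates 1 to 3. Every BPA library was above every untreated one, and the mean rose to 431 ± 122 CPM in BPA cultures, against 127 ± 19.1 CPM in untreated cultures (log2 fold change 1.77, SE 0.21, edgeR adjusted p = 0.00037). The ratio of Hspa8 to Hspa9 counts, read only between libraries since it ignores length, was 2.50, 2.64 and 2.34 in BPA replicates 1 to 3, against 18.6, 20.2 and 18.1 in untreated replicates 1 to 3. The ratio spread little within each group, BPA replicate 2 included. The ratio of Hspa8 to its exchange factor Hspa4 was 2.23 ± 0.432 in BPA and 5.51 ± 0.516 in untreated libraries (SD, n = 3 each). The ratio of Hsph1 to Hspa8 was 0.0587 ± 0.00198 in BPA and 0.0233 ± 0.00464 in untreated libraries. None of these 3 ratios overlapped between groups, and each gave the smallest exact permutation p of 0.1, adjusted to 0.125. All 3 hold Hspa8, whose groups were already apart in CPM, so they are not results separate from its fall. For Hspa8 to Hspa9 the separation followed from the values of both genes given above, so its test could not have come out otherwise.

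**Figure D4:**
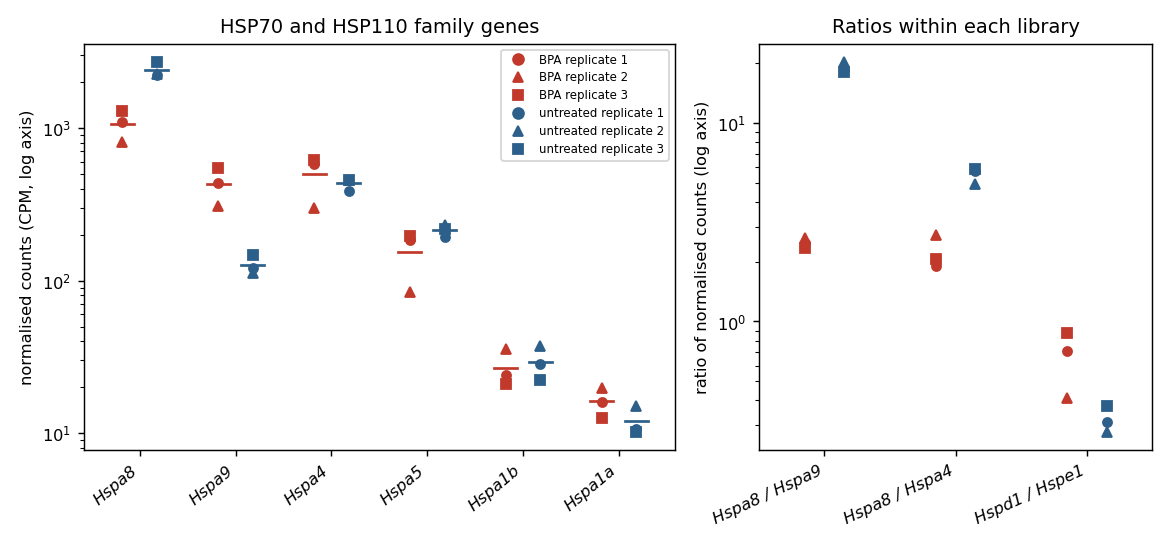
Left, normalised counts (CPM, log axis) of HSP70 and HSP110 family genes in each library, BPA in red left of untreated in blue, lines marking means of 3; right, ratios of normalised counts within each library (log axis). Hspa8 is lower and Hspa9 higher in BPA cultures, and the Hspa8 to Hspa9 ratio is 2.34 to 2.64 in BPA and 18.1 to 20.2 in untreated libraries.

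The inducible HSP70 genes, the most heat-responsive of the family, did not pass the test. Hspa1a had 16.1, 19.9 and 12.5 CPM in BPA and 10.7, 15.2 and 10.2 CPM in untreated replicates 1 to 3 (log2 fold change 0.43, SE 0.34, edgeR adjusted p = 0.475). Hspa1b had 24.2, 35.5 and 21.04 CPM in BPA and 28.6, 37.0 and 22.3 CPM in untreated replicates 1 to 3 (log2 fold change -0.12, SE 0.30, edgeR adjusted p = 0.844), with 0.10 under the GC and length correction. Both genes overlapped between groups, and as near-identical copies their counts are uncertain.

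The 6 lists of related chaperone genes were described in the same way. Each count called in edgeR stands beside 4.37% higher and 6.28% lower over all tested genes. In the list of other HSP70, HSP110, HSP40 and small heat shock genes, 0 of 25 tested were higher and 0 lower in edgeR (1 and 1 at an unadjusted p under 0.05, and 0 and 0 in DESeq2 and in limma-voom), with a median log2 fold change of 0.19. Its most abundant genes, the J-domain genes Dnaja2 and Dnajb6, averaged 194 ± 68.0 and 148 ± 60.7 CPM in BPA and 210 ± 34.3 and 117 ± 17.8 CPM in untreated cultures. Dnaja2 passed as lower with the GC and length correction (log2 fold change -0.40, edgeR adjusted p = 0.0318). Without BPA replicate 2, where 8.81% of all genes were higher, 5 genes of this list were higher. Among 25 cochaperones, 1 was lower and 0 higher (median 0.14; 6 lower and 1 higher at an unadjusted p under 0.05, 2 lower and 0 higher in DESeq2, 1 lower and 0 higher in limma-voom). The lower gene was Fkbp4, an immunophilin that links HSP90 to steroid receptors, which fell to 1803 ± 250 CPM in BPA cultures, against 2471 ± 130 CPM in untreated cultures (log2 fold change -0.45, SE 0.13, edgeR adjusted p = 0.041). It kept the threshold without BPA replicate 2 and lost it when any of the other 5 libraries was left out (up to 0.2 in edgeR), and its log2 fold change was -0.30 with the GC and length correction. Without BPA replicate 2, where 11.7% of all genes were lower, 7 cochaperones were lower.

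Of 6 heat shock factor genes and partners, 0 were called in edgeR (2 higher at an unadjusted p under 0.05, 2 in DESeq2, 0 in limma-voom; median 0.45). Serpinh1, the collagen chaperone HSP47 and a known HSF1 target, averaged 258 ± 39.0 CPM in BPA and 182 ± 16.4 CPM in untreated cultures (log2 fold change 0.50, edgeR adjusted p = 0.0657). Serpinh1 passed as higher in several alternatives, among them DESeq2 (0.0275), the replicate block in edgeR (0.0479), edgeR without BPA replicate 2 (0.0406) and the GC and length correction (log2 fold change 0.74, edgeR adjusted p = 0.00066). Hsbp1, which binds HSF1, averaged 50.8 ± 5.05 and 47.5 ± 0.863 CPM in BPA and untreated cultures. The cytosolic TRiC chaperonin and prefoldin had 1 of 15 genes higher and 1 lower (median -0.11), and both are subunits of 1 ring. At an unadjusted p under 0.05 this list had 3 higher and 2 lower, with 2 and 2 in DESeq2 and 1 and 2 in limma-voom. Cct7 fell to 1143 ± 77.9 CPM in BPA cultures, against 1893 ± 68.6 CPM in untreated cultures (log2 fold change -0.73, SE 0.12, edgeR adjusted p = 0.00244). Cct4 rose to 159 ± 53.3 CPM in BPA cultures, against 84.1 ± 11.01 CPM in untreated cultures (log2 fold change 0.92, SE 0.24, edgeR adjusted p = 0.0315), and missed the threshold when any of the 5 libraries besides BPA replicate 2 was left out (up to 0.153 in edgeR). Cct4 also missed it with the gene length correction (edgeR adjusted p = 0.056, and 0.0514 with the replicate block), and stood at 0.56 with the GC and length correction, still past the threshold.

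Of 19 mitochondrial chaperone and protease genes, 2 were higher and 1 lower (median -0.20), where 4.37% of all tested genes were higher and 6.28% lower. At an unadjusted p under 0.05 this list had 3 higher and 5 lower, with 3 and 5 in DESeq2 and 2 and 3 in limma-voom. Beside Hspa9, its J-domain partner Dnaja3 rose to 117 ± 12.6 CPM in BPA cultures, against 68.6 ± 5.49 CPM in untreated cultures (log2 fold change 0.77, SE 0.18, edgeR adjusted p = 0.0171). The disaggregase Clpb fell to 349 ± 67.6 CPM in BPA cultures, against 521 ± 28.3 CPM in untreated cultures (log2 fold change -0.58, SE 0.16, edgeR adjusted p = 0.0353). Both missed the threshold when any of the 5 libraries besides BPA replicate 2 was left out, with adjusted p in edgeR up to 0.0947 for Dnaja3 and 0.161 for Clpb. Of 17 chaperones of the endoplasmic reticulum, 0 were higher and 2 lower (1 higher and 4 lower at an unadjusted p under 0.05, 1 higher and 4 lower in DESeq2, 0 higher and 3 lower in limma-voom; median -0.10). They were the disulfide isomerases Pdia6, at -0.80 (edgeR adjusted p = 0.00549, 0.0502 without untreated replicate 1), and P4hb, at -0.51 (edgeR adjusted p = 0.0273, and up to 0.145 when any of the 5 libraries besides BPA replicate 2 was left out). Hspa5, the HSP70 of that compartment, averaged 155 ± 60.9 CPM in BPA and 214 ± 19.7 CPM in untreated cultures and passed as lower after the GC and length correction (-0.85, edgeR adjusted p = 0.00796).

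**Figure D5:**
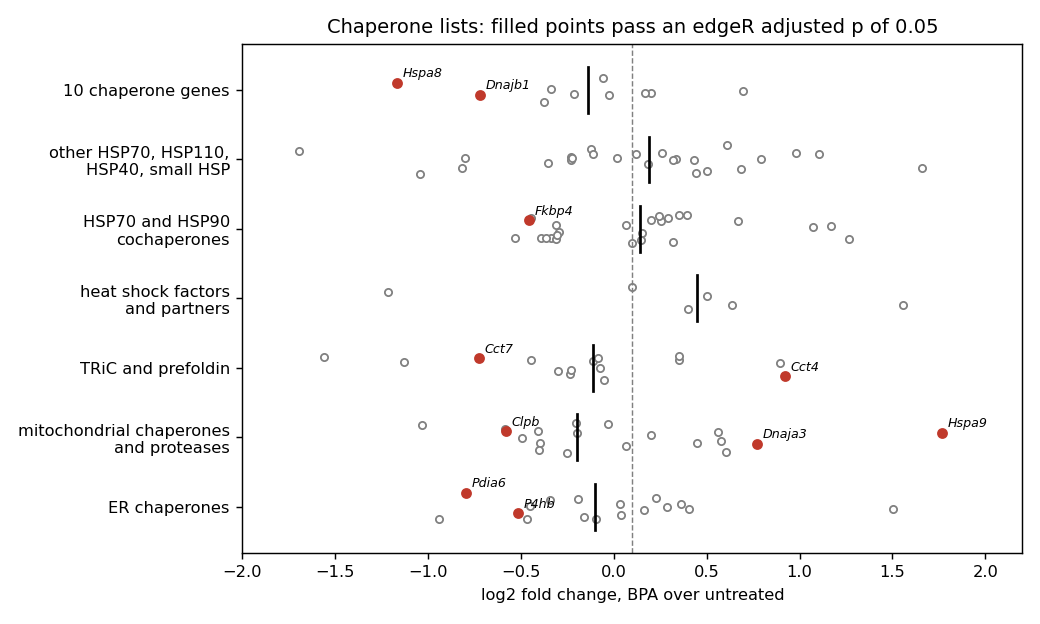
Log2 fold changes (BPA over untreated) of the tested genes in the 7 chaperone lists; filled red points pass an edgeR adjusted p of 0.05, black bars are list medians and the dashed line is the median of all tested genes (0.10). Called genes lie on both sides of 0 among TRiC and mitochondrial genes.

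The transcripts closest in pattern to Hsp90ab1, the most abundant of the 10 per length, were Pld6, Mina and Ran, with root mean square differences of 0.0239, 0.0358 and 0.0394 in centred log2 CPM over the 6 libraries, among 11875 genes compared. Ran had 556, 595 and 608 CPM in BPA and 617, 606 and 666 CPM in untreated replicates 1 to 3. All 3 share with Hsp90ab1 a nearly level course across the 6 libraries.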

How the data were processed

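Per the labels' protocols, total RNA was purified on miRNeasy columns and made into TruSeq RNA v2 libraries, a kit without strand marks. Per the submitters' processing notes, the tools were TopHat2 2.0.9 and HTSeq and the build mm10; for the annotation release, the counting mode and reads with several matches, the setting is not given in the sources used here. Raw counts per gene and FPKM values were deposited by the authors for every sample; FPKM equals counts over length and library total within a relative deviation of 0.00092. Counts were filtered with filterByExpr, scaled by TMM and tested with edgeR 4.0.16 (quasi-likelihood, R 4.3.3) with Benjamini-Hochberg adjustment over 13287 genes at 0.05. The SE is the log2 fold change over the square root of F. FPKM served for levels only. GC content, exon overlap and shared 50-base windows came from GENCODE M21, which held 98.6% of the gene IDs, and promoters from RefSeq GRCm38.p6.

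The 10 genes and the 6 related lists (110 genes) were chosen with earlier results of these data known. Named besides the 10 were up to 4 called genes per list with the smallest adjusted p, or the 2 of highest mean CPM where none passed, Hspa1a, Hspa1b, Hspa9 and Hspa5, and the 3 genes (mean of at least 1 CPM, no Gm or Rik model) closest in centred log2 CPM to the one of the 10 with the highest FPKM. Gm26825, Sox9 and Clu were named after their values were seen. Alternatives were DESeq2 1.42.0, limma-voom (limma 3.58.1), other scalings, filters and thresholds, a replicate block, a gene length correction by lowess (span 0.3) and leaving out each library. A GC and length correction and the adding of copies were chosen after seeing the data. The tests were tried on simulated counts. Within groups, libraries differed beyond sampling noise (chi-square per degree of freedom 19.6 to 91.1), so none was treated as the same library sequenced again. That measure cannot tell separate cultures from separate libraries of the same culture.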

Additional observations from a re-analysis of the deposited data

How the results depend on the processing

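Hspa8 stayed lower and past the threshold in all 20 alternatives, and Dnajb1 stayed lower in all 20 and past 0.05 in all but the 3 that left out an untreated library, its edgeR adjusted p of 0.0135 also missing the stricter FDR of 0.01. Of the 10 genes, 0 were called higher and 2 lower. The count higher was 1 with no low-count filter and 0 to 2 without single libraries. The count lower was 1 at an FDR of 0.01, 3 with the GC and length correction, with or without the block, and 1 to 3 without single libraries. Over all genes, 580 were higher and 835 lower. The count higher was 938 in DESeq2, 927 with no low-count filter, 155 at an FDR of 0.01, 903 with the GC and length correction, 911 with that correction and a replicate block, and 162 to 1207 without single libraries. The count lower was 1228 in DESeq2, 322 at an FDR of 0.01, 1233 with the GC and length correction, 1281 with the correction and block, and 282 to 1600 without single libraries. Among other heat shock genes the count higher was 0 to 5 without single libraries and the count lower was 1 with the GC and length correction, with or without the block. Among cochaperones the count higher was 1 with that correction, with or without the block, and 0 to 1 without single libraries; the count lower was 2 in DESeq2, with no filter, with the block, with the length correction and block, and with the GC and length correction, 3 with that correction and block, 0 at an FDR of 0.01, and 0 to 7 without single libraries. Among heat shock factor genes and partners the count higher was 2 in DESeq2, 1 with upper quartile or library size scaling, no filter, the block, the length correction with block and the GC and length correction with or without it, and 0 to 1 without single libraries. With the block, with the GC and length correction without block, and without BPA replicate 2, that 1 gene was Serpinh1, which is no heat shock factor. Among TRiC and prefoldin genes the count higher was 2 in DESeq2, with no filter, with the block, with the length correction and block and with the GC and length correction, 3 with that correction and block, 0 at an FDR of 0.01 or with the length correction, and 0 to 3 without single libraries; the count lower was 2 in DESeq2, limma-voom, with no filter and with at least 1 CPM in 3 samples, 4 with the GC and length correction with or without the block, and 1 to 2 without single libraries. Among mitochondrial genes the count higher was 1 at an FDR of 0.01 and 1 to 4 without single libraries; the count lower was 5 in DESeq2, 3 in limma-voom, with DESeq2 size factors, upper quartile scaling or the block, 2 with library size scaling, no filter or the GC and length correction, 4 with that correction and block, 0 at an FDR of 0.01, and 0 to 4 without single libraries. Among chaperones of the endoplasmic reticulum the count higher was 1 in DESeq2, with no filter, the block, the length correction with block and the GC and length correction, 2 with the last and block, and 0 to 3 without single libraries; the count lower was 4 in DESeq2, 1 at an FDR of 0.01, 5 with the GC and length correction with or without the block, and 0 to 4 without single libraries. Smaller shifts are not listed for every setting. The cause of the shifts was not tested.

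Among the genes named, signs turned only for ones that did not pass the test. Hspa4 was at -0.12 with the GC and length correction and -0.14 with block; Hsph1 at -0.08 with the length correction, with or without block (-0.085 and -0.0812), and at -0.22 and -0.21 with that for GC and length, without and with block; Hspa1b at 0.10 and 0.11, and Pld6 at 0.15 and 0.14, with the same corrections. With scaling by library size alone, which moved the median of all genes from 0.10 to 0.21, Hsp90ab1 was at 0.0517, Dnaja1 at 0.12, Dnaja2 at 0.0194, Pld6 at 0.0216, Mina at 0.0443 and Ran at 0.0030. Without single libraries Hsp90aa1 ranged from -0.77 to 0.22, Hsp90ab1 from -0.0944 to 0.0193, Dnaja1 from -0.44 to 0.30, Dnaja2 from -0.29 to 0.16, Hspa1b from -0.37 to 0.0854 and Mina from -0.0819 to 0.0163. Groups share replicate numbers, but deviations of same-numbered libraries correlated at only -0.02, 0.09 and 0.12 for replicates 1 to 3. BPA replicates 2 and 3 correlated best with the untreated library of the same number, and BPA replicate 1 with untreated replicate 3 (0.05). These values are small and the labels name no pairing, so the numbers were not taken to pair the libraries. The replicate block changed the call of none of the 10 genes. Among the other genes named it changed that of Serpinh1, to an edgeR adjusted p of 0.0479. The 2 higher TRiC and prefoldin genes with the length correction and block do not include Cct4 (0.0514).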
